A study of Mus musculus with 3 samples.

Results

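The genes described here are Hopx, Lrig1, Msi1 and Bmi1, markers of the reserve stem cells of the intestinal crypt. They were chosen by symbol, 4 of the 32285 genes counted. They were measured in 3 libraries of dissociated mouse small intestinal organoids, which are hollow bodies of epithelium grown in a gel, taken at passage 3 and day 6. All donors were C57BL/6 mice aged 7 to 8 weeks that had received tamoxifen at 2 mg in a pair of doses. WT donors were wild type and were analyzed 21 days after tamoxifen. LApc donors carried Lgr5-EGFP-IRES-CreERT2 with Apc fl/fl and were analyzed after 29 days. LApcL donors had both of these and floxed Lef1 alleles, and were analyzed after 21 days. The Cre sits in the Lgr5 locus, so recombination starts in Lgr5+ cells. It also means that an Lgr5 allele of LApc and LApcL is altered, and whether its transcripts were counted as Lgr5 was not tested. WT control mice of another experiment in the study carried Lgr5-EGFP-IRES-CreERT2, but whether the donor of these WT organoids did is not given in the sources used here. Each genotype was 1 library, so genotypes were compared without a test, and no difference between them could be checked in a replicate. Intervals are at the 95% level and cover counting error only.

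Intestinal epithelium is renewed by Lgr5+ crypt base columnar cells, which depend on Wnt signals. Reserve stem cells are defined operationally, as rarer or more slowly cycling crypt cells that can replace the Lgr5+ cells after injury, and lineage tracing from Hopx, Lrig1 and Bmi1 was used to define them. At the transcript level these markers are known to be broad, and Lgr5+ cells carry them as well. Apc restrains Wnt signaling, and Lef1 is a transcription factor through which the pathway acts on its target genes.

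Lrig1 and Hopx promoters are shown first, because Lrig1 was the member that differed most between LApcL and LApc and Hopx was the most widely detected. The sequences are from RefSeq on GRCm38.p6, 250 bases before to 50 after an annotated start, 5′ to 3′ on the gene's strand. Capitals mark CTTTG or its reverse complement CAAAG, the core letters of the motif bound by the TCF and LEF factors. The Lrig1 window lies at chr6:94700096-94700395 on the reverse strand. The Hopx windows lie at chr5:77095218-77095517 and chr5:77115074-77115373, also on the reverse strand.
Lrig1: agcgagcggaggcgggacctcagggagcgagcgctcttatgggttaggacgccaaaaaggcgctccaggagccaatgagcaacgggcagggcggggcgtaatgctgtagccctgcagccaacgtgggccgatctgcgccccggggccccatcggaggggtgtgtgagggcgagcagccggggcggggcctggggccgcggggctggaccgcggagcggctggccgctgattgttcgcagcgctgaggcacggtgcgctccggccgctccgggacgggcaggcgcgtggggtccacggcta
Hopx, inner start: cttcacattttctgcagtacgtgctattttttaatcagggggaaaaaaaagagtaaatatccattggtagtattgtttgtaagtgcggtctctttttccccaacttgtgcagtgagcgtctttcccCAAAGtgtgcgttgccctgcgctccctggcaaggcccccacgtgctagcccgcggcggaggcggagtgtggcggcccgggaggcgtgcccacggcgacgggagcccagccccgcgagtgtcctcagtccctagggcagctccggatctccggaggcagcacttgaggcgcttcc
Hopx, outer start: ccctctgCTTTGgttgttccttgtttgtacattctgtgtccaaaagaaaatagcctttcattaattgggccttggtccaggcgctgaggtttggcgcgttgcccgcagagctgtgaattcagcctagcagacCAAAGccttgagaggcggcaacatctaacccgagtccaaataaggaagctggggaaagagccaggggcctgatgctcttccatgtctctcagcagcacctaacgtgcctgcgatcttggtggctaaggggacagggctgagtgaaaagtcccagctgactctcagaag

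The Lrig1 window held no core match and 73% G and C. The Hopx windows held 1 and 2 core matches with 59% and 53% G and C. The 5 core letters on either strand were found in 53.9% of 32851 promoter windows of the same length. The longer form CTTTGA or TCAAAG, found in 16.0% of those windows, was in none of the windows of Lrig1, Hopx or Bmi1. These matches describe the letters of the windows only.

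Cells were taken from deep barcodes. The deposited libraries held 11411 (WT), 10706 (LApc) and 12068 (LApcL) barcodes, of which 29.0%, 30.3% and 27.3% also occurred in another library and were set aside. Barcodes of 1 library only, with at least 10000 unique molecular identifiers (UMIs, 1 per captured RNA molecule) and at most 20% mitochondrial UMIs, left 1208 WT, 2161 LApc and 1931 LApcL cells with medians of 38074, 34377 and 32584 UMIs. Median mitochondrial shares were 10.5%, 5.64% and 6.39%. The 6 epithelial markers were detected in every library, at sums from 3742 to 6910 CPM (UMIs per 1e6 UMIs of the library), against 9.04 to 28.7 CPM for 6 endothelial, 0.472 to 1.21 for 5 immune and 0.297 to 1.74 for 5 fibroblast markers. Lef1 stood at 0.961, 72.0 and 47.8 CPM and Apc at 20.0, 88.5 and 95.4 CPM in WT, LApc and LApcL. Counts per gene do not show whether a targeted exon was missing, so they do not measure deletion. WT differed in makeup: 10 enterocyte markers summed to 21763 CPM there and to 8.63 to 11.4 CPM in the other libraries.

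All 4 reserve genes stood higher in LApc than in WT. Lrig1 was higher again in LApcL, Msi1 was lower in LApcL than in LApc, and Hopx and Bmi1 were at close levels in both. None of the 4 differed at least 2-fold between LApcL and LApc, where 1.46% of 8739 genes with at least 10 CPM in either library were that much higher and 3.48% that much lower. Between LApc and WT 1 of the 4, Msi1, was at least 2-fold higher and 0 were lower, against 25.8% and 10.2% of 9068 genes. Between LApcL and WT, Lrig1 and Msi1 were at least 2-fold higher, 2 of the 4, and 0 were lower, against 28.8% and 10.6% of 9043 genes. The median gene was itself shifted, with log2 ratios of 0.52 (LApc against WT), 0.54 (LApcL against WT) and 0.048 (LApcL against LApc). Of the genes past 2-fold between LApc and WT, 71.6% were higher, and 50.5% were with the median-of-ratios scaling in place of CPM.

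**Figure D1:**
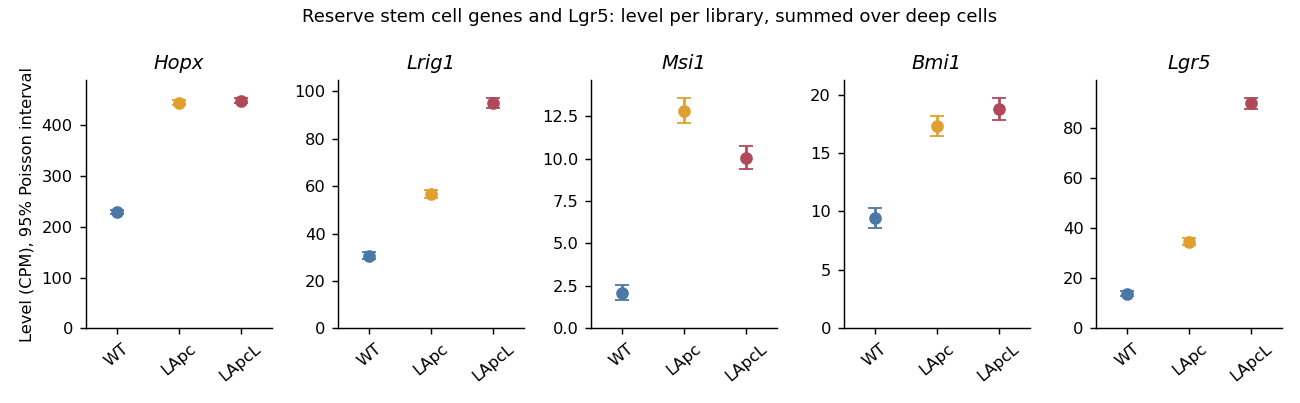
Level of each reserve stem cell gene and of Lgr5 (CPM, vertical axes from 0, with a scale of its own in each panel) in the WT, LApc and LApcL libraries, summed over deep cells. Points are library values and bars are 95% Poisson intervals for counting error. WT is lowest in every panel, Lrig1 and Lgr5 are highest in LApcL, and Msi1 is highest in LApc.

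Hopx (ENSMUSG00000059325) lies at chr5:77086988-77115121 on the reverse strand of GRCm38 and encodes a small homeodomain protein without DNA binding of its own. WT stood at 229 CPM (225 to 233), LApc at 444 (440 to 448) and LApcL at 448 (443 to 453). The WT library was low, and the intervals of LApc and LApcL overlapped. From WT to LApc the log2 ratio was 0.95 (0.92 to 0.98), the 72.3 percentile of all genes. From LApc to LApcL it was 0.014 (-0.0069 to 0.034), the 44.5 percentile.

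Hopx nevertheless differed between LApc and LApcL in how it was spread over cells. To compare cells at an equal depth, each was thinned at random to 10000 UMIs. Hopx detection was then 84.5% (82.4 to 86.5) in WT, 87.1% (85.7 to 88.5) in LApc and 95.6% (94.6 to 96.5) in LApcL, and without thinning it was 98.1% in WT and 94.3% in LApc. Median UMIs per thinned cell were 2, 4 and 4. LApc had more cells at both ends: 278 of 2161 had 0 Hopx UMIs and 8.42% had 10 or more, against 85 of 1931 and 5.85% in LApcL. The variance of Hopx UMIs over their mean was 2.86 in LApc, 1.86 in LApcL and 2.56 in WT. Part of the LApc cells without Hopx were cells with Npy, a neuropeptide gene detected in 318 LApc cells, 1 LApcL cell and 0 of 1208 WT cells. Hopx was detected in 74.2% (69.0 to 78.9) of LApc cells with Npy and in 89.4% (87.9 to 90.7) of those without. By Npy, 1 of the 4 genes (Hopx) had intervals apart and lower, as 8.23% of genes did, and 0 were higher (13.4%).

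Lrig1 (ENSMUSG00000030029; chr6:94604529-94700158, reverse strand) encodes a transmembrane protein that restrains ErbB receptors. LApcL had the highest level, 94.95 CPM (92.8 to 97.1), followed by LApc at 56.6 (55.1 to 58.2) and WT at 30.7 (29.1 to 32.2). The 3 intervals did not overlap, and the order was WT, LApc, LApcL. From LApc to LApcL the log2 ratio was 0.75 (0.69 to 0.80), the 96.8 percentile of all genes, and from WT to LApc 0.89 (0.80 to 0.97), the 69.0 percentile. At equal depth the gene was detected in 27.2% (24.7 to 29.8), 40.1% (38.0 to 42.2) and 60.4% (58.2 to 62.6) of cells, and 3 or more UMIs were found in 1.49%, 4.58% and 12.2%. The last exon of Lrig1 overlaps Slc25a26 on the opposite strand (235, 731 and 657 UMIs). Whether counting used the strand is not given in the sources used here.

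Msi1 (ENSMUSG00000054256; chr5:115429599-115455698, forward strand) encodes an RNA-binding protein of neural and intestinal progenitors. WT held 102 UMIs or 2.09 CPM (1.70 to 2.53), LApc 1163 or 12.8 CPM (12.1 to 13.6), and LApcL 808 or 10.04 CPM (9.36 to 10.8). The gene was scarce in WT, and LApcL stood below LApc. The log2 ratios were 2.62 (2.32 to 2.92) for LApc against WT, at the 93.5 percentile, and -0.35 (-0.48 to -0.22) for LApcL against LApc, at the 12.0 percentile. Shares at equal depth were 1.90% (1.21 to 2.84), 14.5% (13.0 to 16.0) and 12.0% (10.5 to 13.5), of which those of LApc and LApcL overlapped in their intervals. Without thinning they were 6.04%, 34.7% and 29.8%.

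Bmi1 (ENSMUSG00000026739; chr2:18677018-18686629, forward strand) encodes a subunit of Polycomb repressive complex 1. WT stood at 9.43 CPM (8.59 to 10.3), LApc at 17.3 (16.5 to 18.2) and LApcL at 18.7 (17.8 to 19.7). WT was again low, and the LApc and LApcL intervals overlapped. From WT to LApc the log2 ratio was 0.88 (0.73 to 1.03), the 68.7 percentile of all genes. From LApc to LApcL it was 0.11 (0.0099 to 0.22), the 60.5 percentile. The gene was detected at equal depth in 8.03% (6.56 to 9.71), 17.0% (15.4 to 18.6) and 16.9% (15.3 to 18.7) of cells. The size of this difference was uncertain: the log2 ratio of shares from WT to LApc was 0.68 with another thinning seed, and 0.18 without enterocyte-rich cells and 0.39 with a mitochondrial limit of 10%, with overlapping intervals in the last 2. Commd3 ends 787 bases before Bmi1 on the same strand and had 3313, 11855 and 9205 UMIs.

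**Figure D2:**
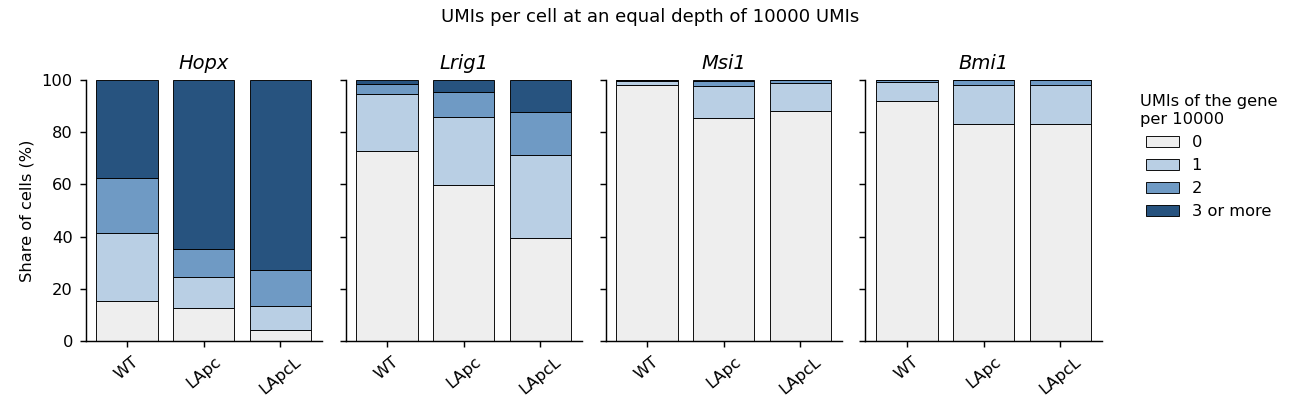
Share of cells (%, vertical axis from 0 to 100) with 0, 1, 2 and 3 or more UMIs of each gene after every cell was thinned to 10000 UMIs, for WT (1208 cells), LApc (2161) and LApcL (1931). Hopx is found in most cells of every library, the dark Lrig1 segments grow from WT to LApcL, and Msi1 and Bmi1 are at 0 UMIs in most cells.

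Co-detection with Lgr5 was asked next, that is, whether a cell with an Lgr5 UMI more often held a reserve gene. Lgr5 stood at 13.9, 34.7 and 90.0 CPM and was detected at equal depth in 118 WT (9.77%), 482 LApc (22.3%) and 1006 LApcL cells (52.1%). In WT, Msi1 and Bmi1 were found at a share at least 1.5 times higher in Lgr5+ cells than in cells with 0 Lgr5 UMIs, 2 of the 4 genes, against 17.5% of 11838 genes. In LApc 0 of the 4 passed that ratio (3.62% of 12627 genes), and in LApcL 0 of the 4 (2.90% of 12216 genes). Hopx could not pass it in any library, because it was found in 84.0% (WT), 85.4% (LApc) and 94.9% (LApcL) of cells with 0 Lgr5 UMIs. By the stricter rule that the intervals do not overlap, 1 of the 4 was higher in Lgr5+ cells of WT (8.23% of genes), 2 of the 4 in LApc (3.83%) and 0 of the 4 in LApcL (2.1%), and 0 of the 4 were lower in any library (4.94%, 2.59% and 0.827%). A cell with 0 Lgr5 UMIs at this depth need not lack Lgr5.

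Msi1 was the member most tied to Lgr5 in WT. It was detected in 8 of 118 Lgr5+ WT cells (6.78%, 2.97 to 12.9) and in 15 of 1090 cells without Lgr5 (1.38%, 0.772 to 2.26), a ratio of 4.93 with intervals that did not overlap. The counts are small. On the log2 scale this ratio was 2.30, and it ran from 1.74 without enterocyte-rich cells to 3.36 with another thinning seed. With a mitochondrial limit of 10% the intervals overlapped. In LApc the order was the other way, at 12.7% (9.82 to 16.0) with Lgr5 and 15.01% (13.3 to 16.8) without. In LApcL Msi1 was detected in 13.6% (11.6 to 15.9) and 10.2% (8.29 to 12.3). The intervals overlapped in both.

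Bmi1 in WT was detected in 13.6% (7.95 to 21.1) of Lgr5+ cells and 7.43% (5.94 to 9.15) of the others, with intervals that overlapped. Leaving out WT cells with over 1% of their UMIs from enterocyte markers took its log2 ratio from 0.87 to 0.051, while a minimum of 5000 UMIs, with cells thinned to 5000, gave 1.46 with intervals apart. In LApc the shares were 18.0% and 16.7%, and in LApcL 16.4% and 17.5%. The intervals overlapped in both. Without thinning, and so without equal depth, the Bmi1 intervals were apart in all 3 libraries, with log2 ratios of 0.95, 0.35 and 0.28 in WT, LApc and LApcL.

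Hopx and Lrig1 differed by Lgr5 in LApc. Hopx was detected in 93.2% (90.5 to 95.2) of Lgr5+ LApc cells and 85.4% (83.6 to 87.1) of the others, and Lrig1 in 46.7% (42.2 to 51.2) and 38.2% (35.8 to 40.6). Both pairs of intervals were apart, although those of Lrig1 overlapped with a minimum of 5000 UMIs. In WT Lrig1 was at 27.1% and 27.2%, and Hopx at 89.0% (81.9 to 94.0) and 84.0% (81.7 to 86.2). In LApcL Hopx was at 96.2% and 94.9%, and Lrig1 at 63.1% (60.1 to 66.1) and 57.5% (54.3 to 60.7), with overlapping intervals. The Lrig1 overlap in LApcL depended on the random draw: another seed gave a log2 ratio of 0.20 in place of 0.13, with intervals apart. The gain with Lgr5 in LApcL was graded for Lrig1: 57.5%, 59.0%, 63.1% and 71.7% (65.5 to 77.3) of cells with 0, 1, 2 and 3 or more Lgr5 UMIs held it. In LApc the same steps gave 38.2%, 45.6%, 43.0% and 58.1% (44.8 to 70.5). Hopx in LApc went from 85.4% through 90.9% and 97.0% to 98.4% (lower bound 91.3).

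**Figure D3:**
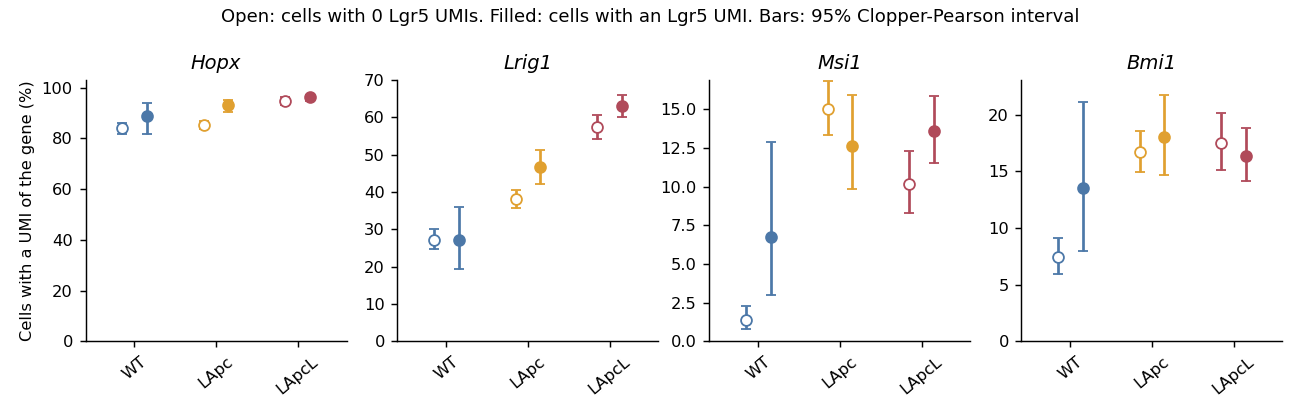
Share of cells with a UMI of each gene (%, vertical axes from 0, with a scale of its own in each panel) among cells with 0 Lgr5 UMIs (open) and with an Lgr5 UMI (filled) at 10000 UMIs per cell; bars are 95% Clopper-Pearson intervals. In the draw shown, the pairs are apart for Msi1 in WT and for Hopx and Lrig1 in LApc, and the Lrig1 pair of LApcL overlaps narrowly.

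In LApc and LApcL, pairs of reserve genes were found together about as often as their separate shares give. For each pair, the number of cells holding both was set beside the number that the product of their shares gives. In LApc these ratios ran from 0.98 (Msi1 and Bmi1, 52 cells) to 1.12 (Lrig1 and Msi1, 141 cells), and in LApcL from 0.98 (Lrig1 and Bmi1, 194 cells) to 1.13 (Lrig1 and Msi1, 158 cells). In WT they ran more widely, from 0.80 (Lrig1 and Msi1) to 1.62 (Msi1 and Bmi1), on 5 and 3 cells. All 4 genes were detected together in 0 WT, 22 LApc and 31 LApcL cells, and 24 of the 31 LApcL cells also held Lgr5 (77.4%, against 52.1% of all LApcL cells). Of the 22 LApc cells, 5 held Lgr5 (22.7%, against 22.3%). Most WT cells held 1 of the 4 (61.2%), while most LApcL cells held 2 (51.6%).

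Division was examined with Mki67, which marks cycling cells. In LApc, Hopx was detected in 92.6% (90.1 to 94.7) of Mki67+ cells and 85.3% (83.5 to 87.0) of the others, and Lrig1 in 47.2% (43.0 to 51.5) and 37.7% (35.3 to 40.1). Msi1 went the other way in LApc, at 10.7% (8.23 to 13.6) with Mki67 and 15.8% (14.0 to 17.6) without. The intervals were apart for these 3, 2 higher and 1 lower with Mki67, against 12.9% of 12627 genes higher and 15% lower. For Bmi1 in LApc (16.8% and 17.0%), and for every reserve gene in WT and LApcL, they overlapped. Intervals were apart for 15.1% (higher) and 6.71% (lower) of genes in WT and for 9.01% and 9.38% in LApcL. In LApcL, Msi1 was at 10.9% with Mki67 and 12.8% without. When cells were instead ordered into 4 groups by the 8 dividing-cell markers, levels in LApcL did differ. From the lowest to the highest group Hopx stood at 489, 469, 443 and 418 CPM, and Msi1 at 12.1, 12.6, 9.29 and 7.98 CPM. Intervals of the end groups were apart for both by level, and overlapped for both in shares at equal depth. The highest group also held the most UMIs per cell in each library, and the part of depth was not tested. In LApc and WT the first 2 groups held only cells with 0 of these UMIs, so the order between them was arbitrary. The third group also began at 0. In LApc, Hopx stood at 419 and 402 CPM in the first 2 groups, then at 466 and 470 CPM. Msi1 stood at 15.6 and 16.5 CPM, then at 12.8 and 8.60 CPM. For both genes the LApc shares of the first 2 groups were apart from that of the highest at equal depth. In WT, Msi1 stood at 1.196 CPM (0.654 to 2.01) and 1.11 CPM (0.590 to 1.90) in the first 2 groups and at 2.98 CPM (2.13 to 4.06) in the highest. Bmi1 stood at 6.92 CPM (5.49 to 8.60) and 9.55 CPM (7.87 to 11.5), and at 13.0 CPM (11.1 to 15.05) in the highest. At equal depth the WT shares over the 4 groups were 0.993%, 1.66%, 3.64% and 1.32% for Msi1. For Bmi1 they were 6.29%, 11.3%, 5.63% and 8.94%. Shares of the lowest and highest groups overlapped in their intervals for both genes.

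In WT the reserve genes were lower in cells with more enterocyte RNA. WT cells were ordered by their UMIs from the 10 enterocyte markers and divided into 4 groups of 302 cells. From the lowest to the highest group Hopx stood at 312, 245, 204 and 171 CPM, Lrig1 at 36.6, 32.6, 30.3 and 24.2 CPM, and Msi1 at 7.43, 1.15, 0.535 and 0.0776 CPM. Bmi1 stood at 17.0, 10.04, 5.58 and 6.44 CPM. Msi1 had 80 of its 102 WT UMIs in the lowest group and 1 in the highest, and Lgr5 followed the same order at 42.0, 14.5, 3.13 and 1.01 CPM. Of 23 WT cells with Msi1 at equal depth, 22 were among the 515 with at most 1% enterocyte marker UMIs. There were 693 WT cells over that limit, 131 WT cells lay near it (80 to 120 of 10000 UMIs), and LApc and LApcL had 0 cells over it. WT and the other libraries therefore differed in cell makeup at the same time as in genotype, and these cannot be told apart in the summed levels. With the limit applied to all UMIs of a cell in place of the thinned ones, 508 WT cells were at or under it, and against these the log2 ratios of LApc were 0.62 (Hopx), 0.71 (Lrig1), 1.40 (Msi1) and 0.30 (Bmi1).

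**Figure D4:**
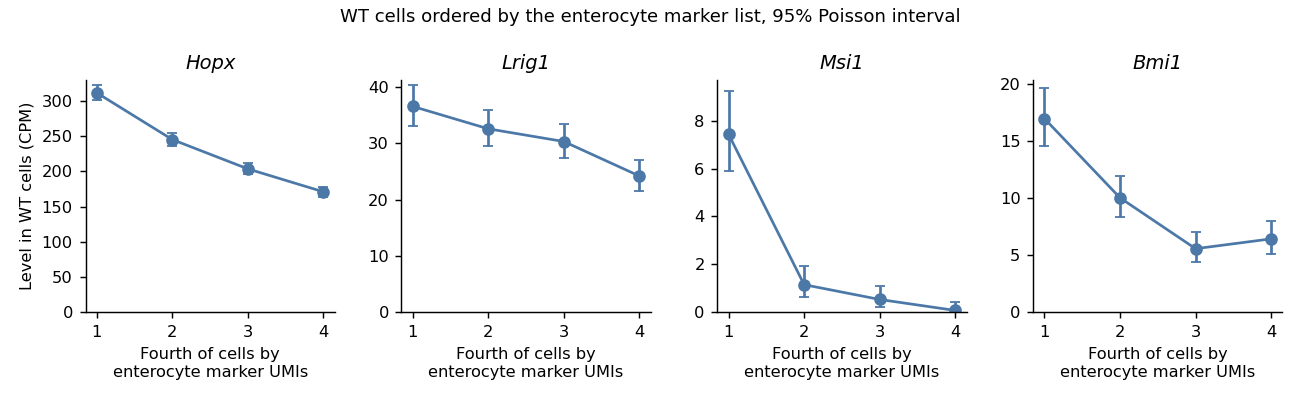
Level (CPM, vertical axes from 0, with a scale of its own in each panel) of each gene in WT cells ordered into 4 groups of 302 by enterocyte marker UMIs at equal depth, with 95% Poisson intervals. Hopx, Lrig1 and Msi1 are lower in each group than in the one before, with overlapping intervals for Lrig1 between the first 3 groups and for Msi1 between neighbours among the last 3, and Msi1 is near 0 in the highest group.

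Cells rich in secretory markers were also compared, with a limit of 100 UMIs of a list per 10000 that was chosen after the data had been seen. In WT, 33 cells reached it for 7 enteroendocrine markers, the hormone-producing lineage. Hopx stood at 856 CPM in them and 218 CPM in the other 1175, and Bmi1 at 36.2 and 8.94 CPM. Lrig1 stood at 31.7 and 30.6 CPM with overlapping intervals, and Msi1 had only 4 UMIs in the enteroendocrine-rich cells. The share of all genes that differed by this split was not counted. Hopx was detected in all 33 (lower bound 89.4) against 84.1% (81.9 to 86.1), and Bmi1 in 8 of 33 (24.2%, 11.1 to 42.3) against 7.57% (6.13 to 9.24). Lgr5 was lower there, at 3.39 and 14.1 CPM, on 3 UMIs in the enteroendocrine-rich cells. LApc had 2 such cells and LApcL 1.

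Msi1 was high in Paneth-rich and goblet-rich LApc cells. It was detected in 17 of 40 LApc cells with at least 100 UMIs of 6 Paneth markers (42.5%, 27.0 to 59.1), against 14.0% (12.5 to 15.5) of the others. It was also found in 11 of 26 goblet-rich LApc cells (42.3%, 23.4 to 63.1) against 14.1% (12.7 to 15.7). How many cells were in both sets was not counted. The 7 goblet markers summed to 327 CPM in LApc, 172 CPM of it from 1 gene, and 1 marker had 0 UMIs. Goblet-rich therefore names a list sum here and not a cell type. In LApcL the shares were 17.1% (9.66 to 27.0) of 82 Paneth-rich and 17.5% (8.75 to 29.9) of 57 goblet-rich cells, against 11.7% and 11.8%, with overlapping intervals. By level the LApcL intervals were apart and in the same direction, at 15.5 CPM (10.98 to 21.3) in Paneth-rich and 19.2 CPM (12.9 to 27.6) in goblet-rich cells, against 9.86 CPM (9.18 to 10.6) in the others of either split. Marker-rich cells were shallower, with medians of 25910.5 UMIs in both LApc sets and 25057 and 26843 in LApcL. The others had medians of 32957.5 or more, and the part of depth was not tested. In WT, Msi1 had 4 UMIs in 8 Paneth-rich cells (12.5 against 2.02 CPM) and 1 UMI in 36 goblet-rich cells (0.780 against 2.12 CPM). The difference between the libraries was not tested. Over 4 groups of cells ordered by the Paneth list, from low to high, Lrig1 stood at 125, 94.1, 86.4 and 79.6 CPM in LApcL. In LApc it was lowest in the first group, at 50.4 CPM, and stood at 57.1, 58.9 and 59.5 CPM in the others, whose intervals overlapped. The LApc shares at equal depth were 37.2%, 41.7%, 43.5% and 38.0%, with overlapping intervals. In WT the 4 levels lay between 29.1 and 33.8 CPM.

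Level moved with the depth of a cell. Lrig1 was highest in the shallowest cells of every library: at 10000 to under 20000, 20000 to under 40000 and 40000 or more UMIs it stood at 59.7, 34.5 and 26.6 CPM in WT, 90.7, 59.5 and 52.3 CPM in LApc, and 174, 98.8 and 84.0 CPM in LApcL. LApcL remained above LApc in each of these ranges, with log2 ratios of 0.94, 0.73 and 0.68. Msi1 followed depth in LApc (25.6, 17.2 and 9.38 CPM) and LApcL (23.7, 11.3 and 7.84 CPM). The corresponding Msi1 ratios (log2) were -0.11, -0.60 and -0.26. Hopx went the other way in LApc, at 331, 443 and 454 CPM, but stood at 262, 240 and 220 CPM in WT and 374, 481 and 441 CPM in LApcL. Bmi1 was lower in deeper LApc cells, at 22.4 (18.3 to 27.1), 19.0 and 16.0 CPM (14.95 to 17.1 in the deepest), and lay between 17.6 and 18.8 CPM in LApcL. Its ratio of LApcL against LApc changed sign with depth, from -0.35 through -0.016 to 0.24. The part of depth in these differences was not tested beyond these ranges.

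**Figure D5:**
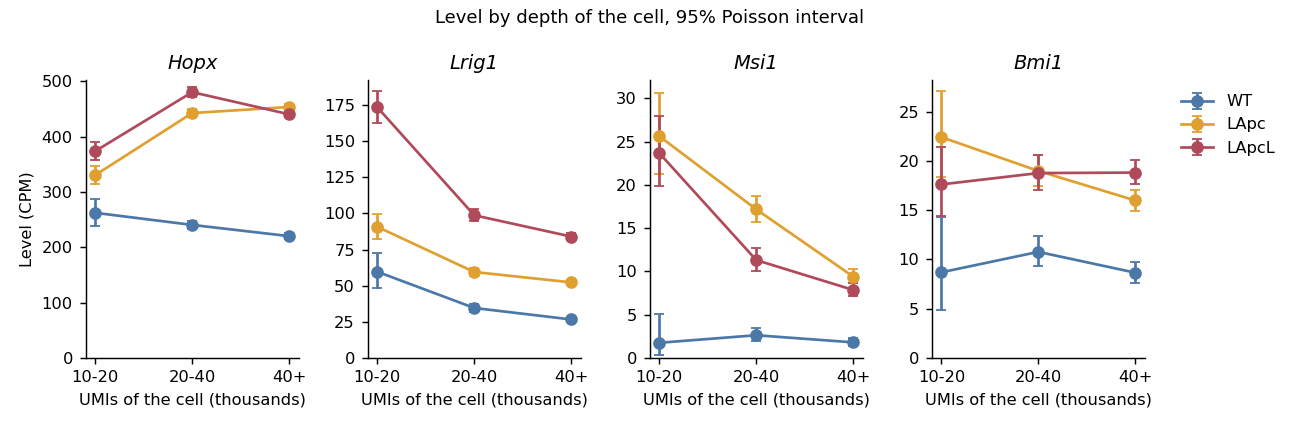
Level (CPM, vertical axes from 0, with a scale of its own in each panel) of each gene in cells of 10000 to under 20000, 20000 to under 40000 and 40000 or more UMIs, by library, with 95% Poisson intervals. Lrig1 falls with depth in all 3 libraries and keeps the order WT, LApc, LApcL, and the LApc and LApcL lines cross for Hopx and Bmi1.

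The genes whose per-cell pattern was most like each member were found as a description, by the mean over libraries of Pearson's r across cells at equal depth, among 8234 to 8235 genes. For Hopx they were Ptma (mean r 0.27), Lgals2 (0.25), Hsp90ab1 (0.24), Ppia (0.23) and Cdk4 (0.22), and Lgals2 reached 0.42 in LApc. For Lrig1 they were Lars2 (0.25), Gm26917 (0.22), Hist1h1e (0.20), Gm42418 (0.20) and Hist1h3e (0.20). Msi1 had Marcksl1 (0.18) first and Bmi1 had Sfpq (0.094), both too weak in such sparse counts to be read. Cells of a library share that library, so these values carry no p.

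Lars2, which encodes a mitochondrial leucyl-tRNA synthetase, moved with Lrig1 between libraries as well as between cells. Its library levels were 321, 861 and 1717 CPM, and it stood at 3476, 772 and 690 CPM over the 3 depth ranges of LApc. Gm26917 and Gm42418, also among the genes most like Lrig1, had the same order of libraries. They stood at 3264, 3855 and 5786 CPM and at 6925, 7789 and 10159 CPM. What these genes share with Lrig1 was not tested. In cells with 0 Lars2 UMIs at equal depth (227 WT, 164 LApc and 45 LApcL cells) Lrig1 stood at 24.7, 42.0 and 64.1 CPM, and the log2 ratio from LApc to LApcL was 0.61. In the others it stood at 32.3, 58.1 and 95.9 CPM, with a ratio of 0.72. LApcL was above LApc in both sets of cells, and the part of Lars2 in the Lrig1 difference was not tested.

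Genes related to the 4 members were counted in lists chosen by name. Of 10 further reserve or injury-responsive stem cell genes, 7 had at least 10 CPM in LApc or LApcL, and between these 1 was at least 2-fold higher in LApcL and 2 lower (1.46% and 3.48% of all genes), with a list median of 0.16 in log2 against 0.048 for all genes. Clu, a marker of revival stem cells, stood at 2.37, 104 and 239 CPM in WT, LApc and LApcL. Cdkn1c, a cell cycle inhibitor, stood at 13.5, 162 and 31.6 CPM, and Prox1, a transcription factor, at 2.50, 426 and 152 CPM. Mex3a, an RNA-binding protein gene of slowly cycling crypt cells, stood at 2.86, 34.6 and 44.7 CPM. Against WT, 6 of 7 tested genes were at least 2-fold higher in LApc (25.8% of all genes) and 6 of 7 in LApcL (28.8%).

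Of 12 crypt base columnar markers, 11 were tested between LApcL and LApc, with 1 higher (Lgr5, log2 ratio 1.37; 1.46% of all genes) and 0 lower (3.48%), and a median of 0.70. Slc12a2, an ion cotransporter gene, had a ratio of 0.93, Tnfrsf19, a receptor gene and Wnt target, -0.057, and Znrf3, which encodes a Wnt receptor ligase, -0.74. Against WT, 7 of 12 were higher and 1 lower in LApc (25.8% and 10.2% of all genes), and 9 higher and 1 lower in LApcL (28.8% and 10.6%). The one lower in both was Olfm4, at 72.1, 0.627 and 0.0994 CPM.

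For Lrig1, the related genes were its paralogs and the receptors it acts on. Of 6, 5 were tested between LApcL and LApc, with 0 higher and 1 lower (1.46% and 3.48% of all genes). Egfr stood at 5.40, 17.9 and 8.00 CPM (log2 ratio -1.16), Erbb2 at 10.6, 22.4 and 34.3 CPM (0.62), Erbb3 at 65.1, 41.6 and 43.3 CPM (0.057), and Lrig2 at 7.59, 10.8 and 9.59 CPM (-0.17). Against WT, 3 of 6 were higher and 1 lower in LApc (25.8% and 10.2% of all genes), and 2 of 4 higher and 1 lower in LApcL (28.8% and 10.6%), too few genes to set beside those shares.

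For Msi1, the paralog Msi2 stood at 37.9, 151 and 164 CPM, with a log2 ratio of 0.12 between LApcL and LApc. Numb, a Notch inhibitor whose mRNA Msi1 is known to bind, stood at 28.3, 25.7 and 20.5 CPM, with a ratio of -0.32. Of these 2 genes, 0 were past 2-fold between LApcL and LApc, and 1 (Msi2) was higher against WT in both LApc (25.8% of all genes) and LApcL (28.8%).

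For Bmi1, 14 of 16 Polycomb complex and target genes were tested between LApcL and LApc, and 0 were past 2-fold, with a median of 0.13. The highest ratios were those of the paralogs Pcgf5 (0.38; 43.2, 25.1 and 32.6 CPM) and Pcgf2 (0.33; 10.9, 15.2 and 19.0 CPM), and Cdkn2a was among the low ones (-0.76). Cdkn2a, the cell cycle inhibitor locus that Bmi1 is known to repress, stood at 0.102, 29.9 and 17.7 CPM, on 5, 2720 and 1422 UMIs. Against WT, 5 of 14 were higher and 2 lower in LApc (25.8% and 10.2% of all genes), and 6 of 15 higher and 2 lower in LApcL (28.8% and 10.6%). The list median of LApc against WT, 0.47, was under the 0.52 of all genes.

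For Hopx, the partners were Srf, the factor whose activity it is known to restrain, and the deacetylases Hdac1 and Hdac2. Srf stood at 34.5, 26.1 and 20.1 CPM, Hdac1 at 48.2, 150 and 160 CPM and Hdac2 at 39.7, 85.0 and 92.7 CPM. Between LApcL and LApc 0 of these 3 were past 2-fold, and against WT 2 were higher and 0 lower in both libraries, where 25.8% (LApc) and 28.8% (LApcL) of all genes were higher.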

How the data were processed

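The 3 libraries were made by the authors from trypsin-dissociated organoids on the 10x Chromium 3′ platform (kit v2 or v3, not given per library). Per the file headers, the deposited values were whole-number UMI counts per gene and barcode from Cell Ranger 6.0.1, whereas the submitters' processing notes name Cell Ranger 2.1.1. The build was mm10, and gene positions are from GENCODE on GRCm38. The members and lists (118 entries in 17 lists) were chosen with earlier results of these data known. Named were the 4 members, Lgr5, Mki67, Npy and, of each related list, the 2 highest and 2 lowest LApcL against LApc ratios among genes with at least 10 CPM, plus genes singled out after their values were seen (Olfm4, Lars2). A gene that this rule names is not reported here.

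UMIs were summed over kept cells (48895147 in WT, 90864428 in LApc and 80504226 in LApcL) and scaled to CPM. A value of 3 UMIs, the floor used for genes at 0, was 0.0614, 0.0330 and 0.0373 CPM. Intervals were exact Poisson (levels), conditional binomial (ratios) and Clopper-Pearson (shares). Thinning was without replacement with seed 1. The interval and thinning steps were tested on simulated counts. Doublets were scored with Scrublet in scanpy 1.11.5, whose threshold marked 2, 1 and 2 barcodes and so did not work. An alternative removed the highest scores instead (119, 398 and 368 kept cells). Computation used Python 3.11.15, NumPy 2.4.6 and SciPy 1.17.1.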

Additional observations from a re-analysis of the deposited data

Results flagged for a closer look

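Signals in barcodes that entered no comparison stood out, those shared between libraries with at least 1000 UMIs and at most 20% mitochondrial UMIs (2820, 2286 and 2403 for WT, LApc and LApcL), above what 3 UMIs allow. Their median depth was 2395, 1905 and 1990 UMIs, and they carried the endothelial gene Pecam1 at 1048, 945 and 953 CPM. Bmi1 stood at 35.7, 35.9 and 33.6 CPM in shared barcodes, against 9.43, 17.3 and 18.7 CPM in the deep cells of WT, LApc and LApcL. Hopx stood at 7.75, 27.0 and 43.3 CPM in shared barcodes, against 229, 444 and 448 CPM. Lrig1 stood at 7.12, 13.7 and 16.3 CPM, against 30.7, 56.6 and 94.95 CPM. Msi1 had 9 UMIs in LApc (1.67 CPM), 4 in LApcL (0.680 CPM) and 1 in WT. At 1000 UMIs per cell, Hopx was detected in 0.213%, 0.612% and 0.583% of shared barcodes and in 22.2%, 32.4% and 35.8% of deep cells. Bmi1 was detected in 3.33%, 3.37% and 3.16% of shared barcodes and in 1.41%, 1.67% and 1.97% of deep cells.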

How the results depend on the processing

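The values are log2 ratios, and the cause of each move was not tested unless the setting itself shows it. Over 17 alternatives of the level, Lrig1 and Msi1 kept the direction of LApcL against LApc in all 17 (0.61 to 0.94 and -0.83 to -0.11), 1 of which, on enterocyte-rich cells, left these libraries as they were, Hopx in 12 and Bmi1 in 14, and all 4 genes kept the direction of LApc against WT. The 5 settings on depth and Lars2 were chosen after seeing the data. Given below are the values of LApcL against LApc, LApc against WT and co-detection that moved beyond the interval of the reported one, with calls gained or lost among shares and LApcL against WT. The other moves among 36 share ratios and among LApcL against WT levels are not listed.

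For LApcL against LApc, Hopx was 0.18, 0.12 and -0.043 at 10000 to under 20000, 20000 to under 40000 and 40000 or more UMIs, 0.24 in cells with 0 Lars2 UMIs and -0.007 in the others, 0.12 without Mki67-positive cells, -0.047 without Npy-positive LApc cells, 0.046 with cells weighted equally, -0.059 without the highest Scrublet scores, -0.021 with median-of-ratios scaling and 0.048 with a mitochondrial limit of 10%. Lrig1 was 0.94 and 0.68 in the lowest and highest depth range, 0.61 with 0 Lars2 UMIs, 0.84 with cells weighted equally, 0.63 without the highest Scrublet scores and 0.80 with a minimum of 5000 UMIs. Msi1 was -0.11 and -0.60 in the lower depth ranges, the first with an interval that reached 0, -0.83 with 0 Lars2 UMIs and -0.48 with the 10% limit. Bmi1 changed sign to -0.35 and -0.016 in the lower depth ranges and to -0.64 with 0 Lars2 UMIs (45 LApcL cells), and was 0.24 in the highest. Its interval reached 0 in the lower depth ranges and in 5 other settings (0.011 to 0.10).

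For LApc against WT in the 3 depth ranges, Hopx was 0.33, 0.88 and 1.04 and Lrig1 0.61, 0.78 and 0.98. In the lowest range Msi1 was 3.88 (3 WT UMIs) and Bmi1 1.37. With 0 Lars2 UMIs the 4 genes were 0.67 (Hopx), 0.77 (Lrig1), 1.77 (Msi1) and 1.23 (Bmi1), and Hopx was 0.99 in the other cells. Without enterocyte-rich cells they were 0.62, 0.71, 1.40 and 0.30, with median-of-ratios scaling 0.54, 0.47, 2.21 and 0.47, and with the 10% limit 0.79, 0.77, 1.94 and 0.65. Without mitochondrial and the 50 most abundant genes in the total, Hopx, Lrig1 and Bmi1 were 0.77, 0.70 and 0.69. Msi1 was 2.16 with CPM + 1 and 3.17 without Mki67-positive cells. Hopx was 1.01 without Npy-positive cells, 0.87 with cells weighted equally and 1.02 without the highest Scrublet scores.

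For LApcL against WT, Msi1 and Bmi1 were 0.93 and 0.59 with 0 Lars2 UMIs, with intervals that reached 0. Of the share ratios, Bmi1 lost its separation from WT without enterocyte-rich cells (0.18 for both LApc and LApcL) and with the 10% limit (0.39 and 0.35), and Hopx for LApcL without thinning (0.013). The Hopx share of LApc was apart from that of WT in 7 alternatives (-0.058 without thinning and 0.074 to 0.39 in the others), and the Msi1 shares of LApcL and LApc were apart with a minimum of 20000 UMIs (-0.50), the 10% limit (-0.44) and no thinning (-0.22).

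For co-detection with Lgr5, which also carries the chance of each thinning, Lrig1 in LApc was 0.48 without Mki67-positive cells, 0.47 without Npy-positive cells and 0.51 with a minimum of 20000 UMIs, and with a minimum of 5000 UMIs, with cells thinned to 5000, its intervals overlapped. Lrig1 in LApcL was 0.28 without Mki67-positive cells and 0.27 with the 10% limit, and its intervals were apart in these and also with another seed (0.20), a minimum of 5000 UMIs (0.21), no thinning (0.17) and without the highest Scrublet scores (0.20), 6 of the 8 alternatives that change the LApcL cells or their draw. Bmi1 in WT gained separate intervals with a minimum of 5000 UMIs (1.46), as did Lrig1 in WT there and without thinning (0.28), Hopx in WT without enterocyte-rich cells (0.18), the highest Scrublet scores (0.25) or the top 1% by genes detected (0.20), and Hopx in LApcL without thinning (0.037) or the highest Scrublet scores (0.062). Bmi1 in LApcL was 0.20, 0.19, 0.28 and 0.22 without Mki67-positive cells, with the 10% limit, with no thinning and without the top 1% by genes detected, and Bmi1 in WT was 0.051 without enterocyte-rich cells and -0.20 with the 10% limit. Msi1 in LApcL was -0.001 with another seed, and Msi1 in WT ran from 1.74 to 3.36. Without the highest Scrublet scores, Lrig1 in WT was 0.54 and Msi1 in LApc 0.14. With a minimum of 5000 UMIs, Hopx in WT was 0.27, Lrig1 in WT 0.85, Hopx in LApc 0.20 and Msi1 in LApc 0.29.

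The number of genes at least 2-fold higher and lower between LApcL and LApc was 128 and 304, 2459 and 3509 with no filter on low levels, and 38 and 93 with a minimum of 50 CPM. Between LApc and WT it was 2340 and 928, 5728 and 4991 with no filter, 787 and 432 at 50 CPM, and 1388 and 1363 with median-of-ratios scaling. No paired analysis was possible because each genotype was 1 library. The low counts of Msi1 in WT limit every share given for it there.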

Other observations

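Cells of 1 library only with 1000 to under 10000 UMIs (1359, 1111 and 1876 for WT, LApc and LApcL) were not part of the comparisons. Lrig1 stood higher in them than in deep cells, with LApcL at 292 CPM (280 to 304), LApc at 191 (179 to 204) and WT at 89.1 (81.5 to 97.3), the same order of libraries as in deep cells. Msi1 stood at 2.52, 48.9 and 27.3 CPM, so that LApc was again above LApcL. Hopx stood lower than in deep cells, at 119, 296 and 330 CPM, and Bmi1 stood at 10.6, 16.8 and 16.2 CPM. At 1000 UMIs per cell Lrig1 was detected in 8.61%, 15.1% and 23.2% of these cells and in 3.39%, 5.65% and 10.3% of deep cells.

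WT cells with a Hopx UMI at equal depth carried a mean of 25.8 UMIs of the 7 enteroendocrine markers, against 0.102 in the 187 WT cells without one. The medians were 0 in both, and 33 WT cells held 100 or more such UMIs. In LApcL, by contrast, the 85 cells without Hopx carried a mean of 130 UMIs of the 6 Paneth markers, against 50.1 in cells with it, and the medians were 6 in both. LApc went the other way, with means of 8.07 without Hopx and 20.7 with it and medians of 2 in both.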
